A study of Mus musculus with 3 samples.

Results

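The 8 genes Olig1, Olig2, Sox10, Nkx2-2, Pdgfra, Cspg4, Lhfpl3 and Gpr17 are transcription factors and membrane proteins of the oligodendrocyte lineage. They were taken by symbol, 1 row each, from the 32285 genes of the deposited matrices, and all 8 had UMIs (unique molecules counted) in every library. They were followed in 5531 cells of bulk electroporation, 6298 cells of localized electroporation and 6091 cells of control, 17920 cells in all. A cell was a barcode with at least 3000 UMIs, at least 500 genes and at most 20% of its UMIs from genes of the mitochondrial genome.

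The cells were neural progenitors from brains of mice at postnatal day 1, expanded as neurospheres with 20 ng/mL human epidermal growth factor, and no genotype or strain was given in the labels. In each group 50000 cells were plated on poly-D-lysine and kept for 16 h. The bulk electroporation group was then treated in a Nucleofector unit, the localized electroporation group received 400 pulses of 20 V on the device it grew on, and the control group received neither as far as the labels tell. Cells were dissociated 4 h after treatment and 10000 cells of each group went into a droplet run that reads the 3' ends of transcripts. The labels do not say on which surface the control cells were plated, so surface and treatment cannot be told apart. Each group had 1 library, so no test was possible and no difference below has a replicate check. Intervals are 95% intervals of counting error only.

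Oligodendrocytes, the myelin-forming cells of the brain, arise from precursor cells that derive from neural progenitors. Olig2 is needed to specify the lineage, Sox10 and Nkx2-2 act as precursors go on to differentiate, and platelet-derived growth factor acting on the receptor Pdgfra keeps precursors dividing. Precursors carry the proteoglycan Cspg4 (NG2), and the receptor Gpr17 marks cells that have left the precursor state but do not yet make myelin, which makes the order Olig2, Pdgfra, Gpr17 a common scale of progress along the lineage.

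Cells were labelled neural stem cells, and all 9 neural stem markers of a list averaged at least 5 CPM (the UMIs of a gene summed over cells, per 1000000 UMIs of the same cells), among them the fatty acid binding protein Fabp7 with 4326 CPM in bulk electroporation, 6185 CPM in localized electroporation and 3764 CPM in control. Libraries differed in depth. The median cell held 11644 UMIs in bulk electroporation, 10980.5 in localized electroporation and 9542 in control. Cells of 3000 to 6000 UMIs made up 10.99% of bulk, 7.83% of localized and 17.3% of control cells. UMIs outside cells, a source of free RNA, were 9.62% in bulk, 9.10% in localized and 17.0% in control. The libraries shared 9 cell barcodes between bulk and control, 6 between localized and control and 7 between bulk and localized.

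In the mouse genome (GRCm38, GENCODE vM21) Olig2 at chr16:91225457-91228677 and Olig1 at chr16:91269772-91271933 lie on the same strand with 41094 bases and 1 annotated gene between them. Sox10 lies at chr15:79154908-79165240, Nkx2-2 at chr2:147177546-147194243, Pdgfra at chr5:75152292-75198215, Cspg4 at chr9:56865033-56899870 and Lhfpl3 at chr5:22746059-23275597. Lhfpl3 overlaps 6030443J06Rik on the same strand, so reads of the shared stretch cannot be assigned with certainty, and that gene had 198 UMIs in bulk, 237 in localized and 201 in control. Gpr17 overlaps Lims2 on the opposite strand, and whether counting used the strand is not given in the sources used here. Lims2, itself on the list of precursor markers, had 2.14 CPM in bulk, 5.91 CPM in localized and 2.65 CPM in control. The RefSeq promoter table for GRCm38.p6 held 5 of the 8 genes, and 3 of its sequences, from 250 bases before to 50 bases after the start, are shown for 2 kinds of spread over the clusters described below. Olig2 (chr16:91225300-91225599, plus strand) was read in cells of every cluster, while Pdgfra (chr5:75152001-75152300, plus strand) and Lhfpl3 (chr5:22745804-22746103, plus strand) had most of their UMIs in clusters 4 and 5. Capitals mark E-boxes (CANNTG, which reads the same on both strands), the sequence that basic helix-loop-helix factors such as Olig1 and Olig2 can bind.
Olig2: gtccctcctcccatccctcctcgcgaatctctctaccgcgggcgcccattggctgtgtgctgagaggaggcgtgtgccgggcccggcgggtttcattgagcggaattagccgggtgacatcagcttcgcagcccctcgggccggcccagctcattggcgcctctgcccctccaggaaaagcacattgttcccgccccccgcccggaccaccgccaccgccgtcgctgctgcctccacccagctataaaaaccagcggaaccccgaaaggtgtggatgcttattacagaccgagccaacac
Pdgfra: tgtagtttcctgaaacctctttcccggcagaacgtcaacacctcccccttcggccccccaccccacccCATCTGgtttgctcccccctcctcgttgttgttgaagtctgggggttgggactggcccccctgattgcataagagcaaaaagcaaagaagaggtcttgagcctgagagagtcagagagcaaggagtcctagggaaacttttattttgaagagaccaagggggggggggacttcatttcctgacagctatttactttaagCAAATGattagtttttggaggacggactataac
Lhfpl3: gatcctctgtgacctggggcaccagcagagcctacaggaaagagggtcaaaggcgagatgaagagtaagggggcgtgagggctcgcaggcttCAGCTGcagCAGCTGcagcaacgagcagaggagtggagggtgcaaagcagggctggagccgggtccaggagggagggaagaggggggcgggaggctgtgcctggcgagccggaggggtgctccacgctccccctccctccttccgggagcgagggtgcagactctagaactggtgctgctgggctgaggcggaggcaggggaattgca
E-boxes numbered 0 in Olig2, 2 in Pdgfra and 2 in Lhfpl3, and 72.3% of the 32851 promoters of this length held at least 1. The SOX motif ACAAAG, on either strand, was in 0 of the 5 promoters and in 18.7% of all. Olig2 held 1 TATAAA, which 13.6% of all promoters held on either strand. A match or its absence in this window describes letters only.

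In bulk electroporation against control, Gpr17 was the member with the lowest ratio and Olig2 the one with the highest. In localized electroporation 7 of the 8 members lay above control. The share of all genes above control was not computed, but their median log2 ratio there, 0.12, was also above 0. Of the 8 members, 0 were at least 2-fold higher and 1, Gpr17, was at least 2-fold lower in bulk than in control, where 0.692% and 0.535% of 9535 genes of at least 5 CPM were. In localized electroporation 2 members, Sox10 and Gpr17, were at least 2-fold higher than in control and 0 were lower, beside 1.35% and 0.839% of all genes. In bulk against localized electroporation 0 members were at least 2-fold higher and 3 members, Sox10, Pdgfra and Gpr17, were at least 2-fold lower, beside 0.933% and 0.703% of all genes. The median log2 ratio of the members was -0.20 in bulk over control, 0.52 in localized over control and -0.38 in bulk over localized, and that of all genes was 0.09, 0.12 and -0.03 in the same comparisons. The first 2 comparisons share the control library.

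**Figure D1:**
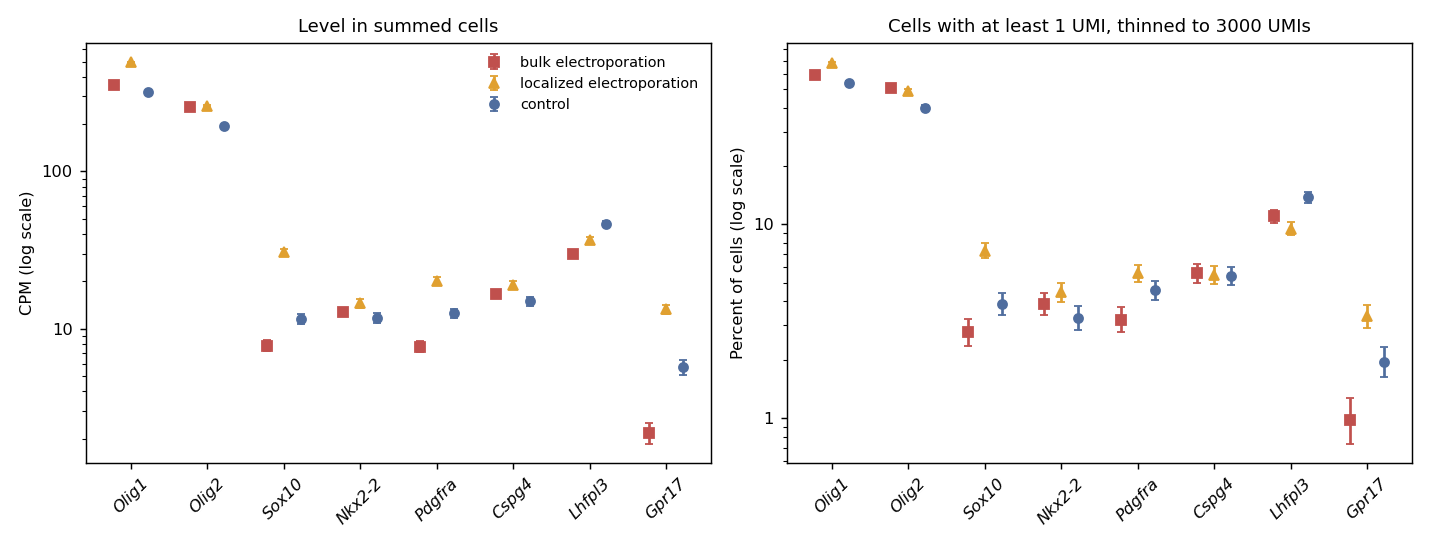
Level of each gene in summed cells (left, CPM, log scale) and percent of cells with at least 1 UMI after each cell was thinned to 3000 UMIs (right, log scale) in bulk electroporation, localized electroporation and control. Bars are 95% intervals of counting error. Sox10, Pdgfra and Gpr17 are highest in localized electroporation and lowest in bulk electroporation, while Lhfpl3 is highest in control. The order of the libraries for Sox10, Pdgfra and Lhfpl3 changed with the depth of the cells.

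Among the transcription factors, Olig1 and Olig2 were read in most cells. Olig1, which acts with Olig2 in oligodendrocyte maturation, had 353 CPM (349 to 357) in bulk electroporation, 493 CPM (488 to 498) in localized electroporation and 322 CPM (317 to 326) in control. Olig2 had 255 CPM (252 to 259) in bulk, 262 CPM (258 to 266) in localized and 194 CPM (190 to 197) in control. Both were above control in both treated libraries, with log2 ratios of 0.13 for Olig1 and 0.40 for Olig2 in bulk and 0.61 for Olig1 and 0.44 for Olig2 in localized electroporation. After each cell was thinned to 3000 UMIs, Olig1 was detected in 59.2% of bulk, 67.9% of localized and 53.9% of control cells, and Olig2 in 50.7% of bulk, 48.6% of localized and 40.1% of control cells. Without thinning the shares were 87.9%, 92.3% and 82.8% for Olig1 and 83.5%, 79.5% and 68.0% for Olig2. Barcodes of 10 to 100 UMIs, a measure of free RNA, had 308 CPM of Olig1 in bulk, 389 CPM in localized and 465 CPM in control, so the free RNA of control was richer in Olig1 than its cells. Olig1 and Olig2 did not keep 1 ratio: there were 1.38 Olig1 UMIs per Olig2 UMI in bulk, 1.88 in localized and 1.66 in control cells. This ratio also differed between the clusters described below. In cluster 3 it was 0.978 in bulk, 1.46 in localized and 1.20 in control, and in cluster 4 it was 1.74, 2.03 and 1.78.

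Sox10, a factor that turns on myelin genes, had the ratios furthest from 1 of the transcription factors. It had 7.82 CPM (7.21 to 8.47) in bulk electroporation, 30.9 CPM (29.7 to 32.2) in localized electroporation and 11.6 CPM (10.7 to 12.5) in control. The 3 intervals, of counting error only, did not overlap, and the share of all genes for which this holds was not computed. Localized over control was 2.67-fold (2.46 to 2.91, log2 ratio 1.34), and this ratio stayed at least 2-fold in all 12 alternatives tried. Bulk over localized was 0.253-fold (0.231 to 0.276), also past 2-fold in all 12. Bulk over control was 0.676-fold (0.605 to 0.754), but among cells of 6000 to 20000 UMIs that log2 ratio was 0.13, so no direction is drawn from it. Thinned cells with a Sox10 UMI made up 2.77% of bulk, 7.30% of localized and 3.87% of control cells, and without thinning 6.13%, 12.6% and 6.37%. In cluster 1, described below, the share was 0.177% in bulk, 0.621% in localized and 0.0541% in control. Median depths there were 11235, 9956 and 9341 UMIs. Whether cells of cluster 1 lack Sox10 was not tested, and the share there was also highest in localized electroporation.

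Nkx2-2, a homeodomain factor of the lineage, differed little. It had 12.8 CPM (11.98 to 13.6) in bulk, 14.5 CPM (13.6 to 15.4) in localized and 11.7 CPM (10.8 to 12.5) in control. The bulk and control intervals overlapped, and localized over control was 1.24-fold (1.13 to 1.37). Thinned shares were 3.89% in bulk, 4.45% in localized and 3.28% in control cells, and unthinned shares 14.5%, 13.7% and 10.2%.

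Of the membrane proteins, Pdgfra, the receptor for platelet-derived growth factor, had 7.70 CPM (7.10 to 8.35) in bulk electroporation, 20.1 CPM (19.1 to 21.2) in localized electroporation and 12.5 CPM (11.6 to 13.4) in control. Localized over control was 1.61-fold (1.48 to 1.76), bulk over control was 0.616-fold (0.553 to 0.687), and bulk over localized was 0.383-fold (0.347 to 0.421). The bulk ratio to control narrowed to a log2 ratio of -0.09 among cells of 6000 to 20000 UMIs, against -0.63 over all cells. The localized ratio to control widened to a log2 ratio of 1.12 with a minimum of 6000 UMIs and 1.02 with 6000 to 20000 UMIs, past 2-fold in 2 of 12 alternatives, against 0.65 over all cells. Thinned shares were 3.22% in bulk, 5.57% in localized and 4.56% in control, with 0.473%, 0.477% and 0.595% of the same libraries' cells in cluster 1. Unthinned Pdgfra shares were 7.02% in bulk, 10.46% in localized and 7.77% in control cells.

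Cspg4, the NG2 proteoglycan that pericytes also carry, was nearly level in thinned shares but less so in CPM. Localized over control was 1.27-fold (1.17 to 1.39) and bulk over control was 1.11-fold (1.02 to 1.21). Cspg4 had 16.6 CPM (15.7 to 17.6) in bulk, 19.1 CPM (18.1 to 20.1) in localized and 14.97 CPM (14.02 to 15.97) in control, and thinned shares of 5.57%, 5.48% and 5.42% in that order of libraries (unthinned 18.0%, 17.9% and 12.99%). Lhfpl3, a membrane protein enriched in precursors, was highest in control: it had 29.98 CPM (28.8 to 31.2) in bulk, 36.7 CPM (35.4 to 38.1) in localized and 46.6 CPM (44.9 to 48.3) in control. It was the 1 member lower in localized than in control, at 0.788-fold (0.748 to 0.831), and among cells of at least 6000 UMIs its log2 ratio there was 0.09. Bulk over control was 0.643-fold (0.609 to 0.680, log2 ratio -0.62), and this log2 ratio was -0.16 among cells of 6000 to 20000 UMIs. At 6000 to 9000 UMIs Lhfpl3 had 82.1 CPM in bulk and 66.1 CPM in control, so its place as highest in control held over all cells but not at each depth. Thinned Lhfpl3 shares were 10.99% in bulk, 9.50% in localized and 13.8% in control cells, and unthinned shares 21.7%, 18.8% and 23.6%.

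Gpr17, a G protein-coupled receptor of cells between precursor and oligodendrocyte, had the widest range. It had 2.17 CPM (1.85 to 2.52) in bulk electroporation, 13.3 CPM (12.5 to 14.1) in localized electroporation and 5.68 CPM (5.10 to 6.31) in control, from 168, 1012 and 351 UMIs. Bulk over localized was 0.163-fold (0.138 to 0.192) and passed 2-fold in all 12 alternatives. Bulk over control was 0.382-fold (0.316 to 0.460), with log2 ratios from -1.35 to -0.53 over the alternatives and past 2-fold in 8 of 12. Localized over control was 2.34-fold (2.07 to 2.65), with log2 ratios from 0.83 to 1.45 and past 2-fold in 10 of 12. Thinned shares were 0.976% in bulk, 3.35% in localized and 1.95% in control cells, against 0.0591%, 0.239% and 0.0541% in cluster 1. Unthinned Gpr17 shares were 2.26% in bulk, 7.02% in localized and 3.46% in control cells. Barcodes of 10 to 100 UMIs had 2.18 CPM of Gpr17 in bulk, 8.67 CPM in localized and 11.7 CPM in control, from 8, 24 and 35 UMIs, so the free RNA of control was richer in Gpr17 than its cells. With 10% of each library's UMIs taken away in proportion to that free RNA, the log2 ratios of Gpr17 were -0.92 in bulk and 1.31 in localized over control.

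Cells were grouped by expression of variable genes with the 8 members left out, which gave 7 clusters. A cluster was named only where at least 3 genes of 1 marker list were among its 10 leading genes. Cluster 3 (3790 cells, led by Cdc20, Gas2l3 and Cenpf) was dividing-like. Cluster 4 (2535 cells) was oligodendrocyte precursor-like, with C1ql1, Tnr and Pcdh15 among its leaders, and its median cell held 6053 UMIs. The neuron list also stood above other cells there, with a median log2 ratio of 1.57 over its 7 markers of at least 5 CPM, beside 1.85 over 17 for the precursor list. Cluster 6 (116 cells) was differentiating oligodendrocyte-like, with Mbp, Enpp6, Bmp4, Bcas1 and Tmem163 among its leaders. Clusters 1 (5638 cells, led by Apoe, Fbxo32 and Neat1), 2 (5041 cells, led by the DNA replication genes Ccne2 and Cdc6), 5 (735 cells, led by Ptprd, Brinp3 and Pcdh15) and 7 (65 cells, 1 of them from control) stayed unnamed. The precursor list was not particular to cluster 4. Its median log2 ratio to other cells was 1.78 over 19 markers of at least 5 CPM in cluster 6, and 1.40 over 16 in cluster 5. For the differentiating list it was 4.72 over 20 in cluster 6. Cluster 4 held 12.7% of bulk, 14.3% of localized and 15.3% of control cells.

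The members differed in how they spread over these clusters. Over all libraries, clusters 4, 5 and 6 held 58.6%, 12.6% and 13.6% of the Sox10 UMIs and 56.2%, 7.5% and 19.9% of the Gpr17 UMIs. Of the Pdgfra UMIs they held 56.9%, 21.7% and 1.7%, and of the Lhfpl3 UMIs 52.3%, 17.8% and 2.5%. By contrast clusters 1, 2 and 3 held 29.0%, 29.5% and 19.3% of the Olig1 UMIs and 26.6%, 26.7% and 26.5% of the Olig2 UMIs. Nkx2-2 and Cspg4 lay between, with 18.5% and 24.5% of their UMIs in cluster 4. These shares also depend on cluster size: clusters 1, 2 and 3 held 5638, 5041 and 3790 cells and cluster 4 held 2535. By level, Olig1 had 401 CPM in cluster 1 and 799 CPM in cluster 4. Nkx2-2 had 9.73 CPM and 29.0 CPM there, and Cspg4 12.2 CPM and 50.1 CPM.

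From cluster 4 to cluster 6 the members parted. Over all libraries Sox10 had 120 CPM in cluster 4 and 346 CPM in cluster 6, Gpr17 had 48.0 CPM and 210 CPM, and Nkx2-2 had 29.0 CPM and 87.1 CPM. Pdgfra had 92.0 CPM in cluster 4 and 33.9 CPM in cluster 6, Cspg4 50.1 CPM and 17.3 CPM, and Lhfpl3 233 CPM and 136 CPM. Thus 3 members were higher in cluster 6, led by myelin genes, and the other 5, Olig1 and Olig2 included, were higher in cluster 4. The precursor list itself stood nearly level in these clusters, with median log2 ratios of 1.85 in cluster 4 and 1.78 in cluster 6. Olig1 had 799 CPM and Olig2 422 CPM in cluster 4, against 523 CPM and 311 CPM in cluster 6. In cluster 5 Pdgfra had 89.6 CPM, close to cluster 4, but Gpr17 had 16.3 CPM.

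**Figure D2:**
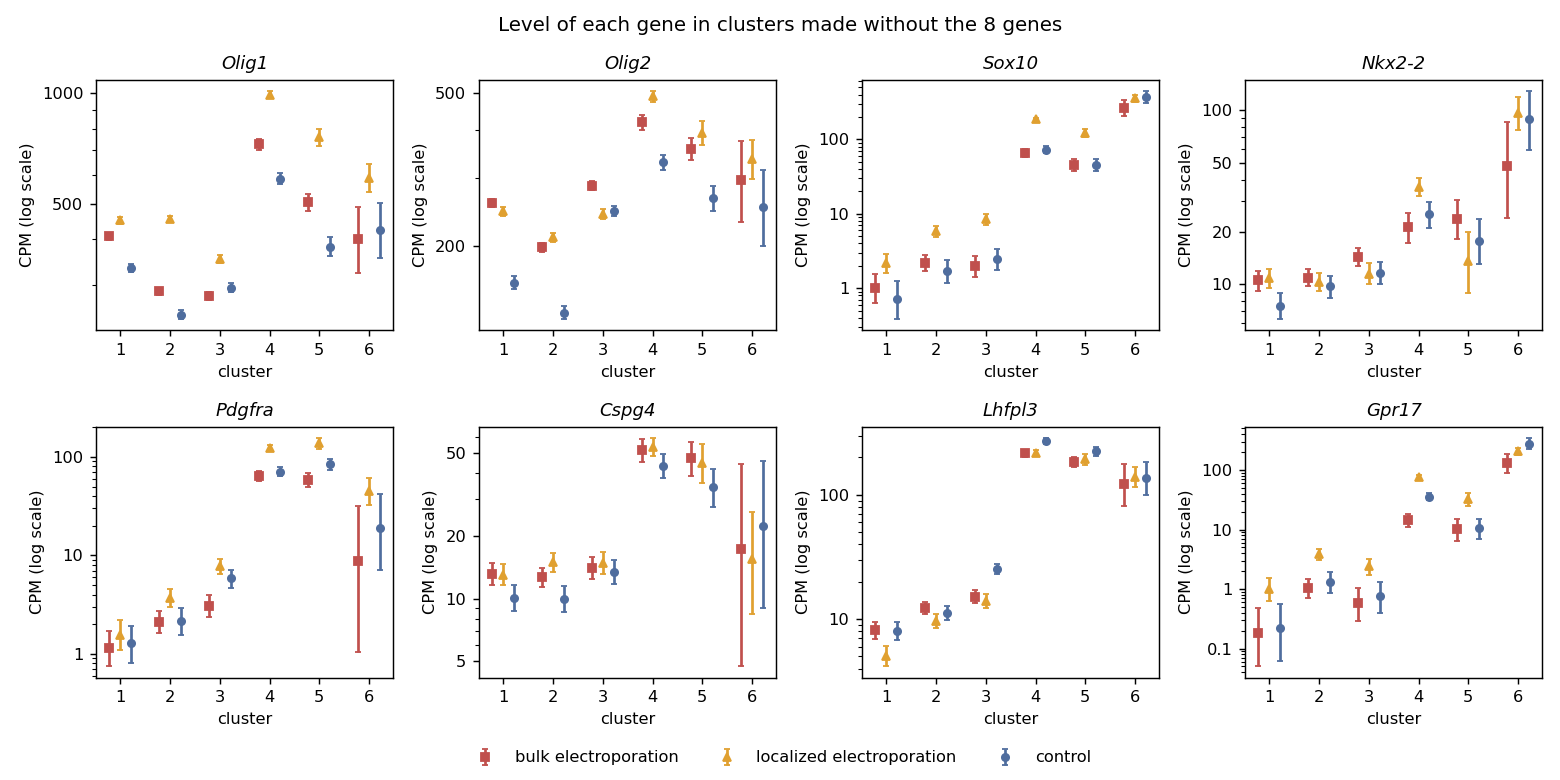
Level (CPM, log scale) of each gene in clusters 1 to 6 of bulk electroporation, localized electroporation and control, with 95% intervals of counting error. Sox10 and Gpr17 are highest in cluster 6 and Pdgfra, Cspg4 and Lhfpl3 in clusters 4 and 5, while Olig1 and Olig2 are present in all 6.

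The differences between libraries were also present inside clusters. In cluster 4 Sox10 had 65.3 CPM in bulk, 187 CPM in localized and 72.7 CPM in control. Pdgfra had 64.3 CPM in bulk, 123 CPM in localized and 71.1 CPM in control, and Gpr17 had 14.4 CPM in bulk, 76.8 CPM in localized and 35.7 CPM in control. Localized electroporation was thus the highest library for each of the 3 within this cluster, and bulk lay close to control for Sox10 and Pdgfra but below it for Gpr17. Localized over control, Sox10 was higher in 5 of 6 clusters, Pdgfra in 6 of 6, Gpr17 in 5 of 6 and Olig1 in 6 of 6. In cluster 6, the exception for Sox10 and Gpr17, Sox10 had 265 CPM in bulk, 358 CPM in localized and 370 CPM in control, in 23, 54 and 39 cells. Gpr17 there had 131 CPM in bulk, 207 CPM in localized and 278 CPM in control. Bulk over control, Olig2 was higher in 6 of 6 clusters, Pdgfra and Gpr17 in 0 of 6, and Sox10 in 3 of 6. Some of these were near ties on few UMIs. In cluster 1 Gpr17 had 4 UMIs in bulk and 4 in control, and Pdgfra had 1.16 CPM and 1.28 CPM. In cluster 2 Pdgfra had 2.13 CPM in bulk and 2.14 CPM in control. Such counts of clusters were not computed for all genes.

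All 8 members had their highest level in the cells of fewest UMIs in each library. In cells of 3000 to 6000 UMIs Lhfpl3 had 205 CPM in bulk, 141 CPM in localized and 225 CPM in control, and in cells above 20000 UMIs 13.7, 33.4 and 23.7 CPM. Sox10 in the shallowest cells had 51.7 CPM in bulk, 121 CPM in localized and 62.3 CPM in control. Since cluster 4 is shallow and control holds the most shallow cells, the ratios were compared within 5 ranges of depth. Localized over control, Olig1, Olig2, Sox10, Pdgfra and Gpr17 were higher in 5 of 5 ranges and Lhfpl3 in 3 of 5. Bulk over control, Olig2 and Cspg4 were higher in 5 of 5 ranges and Gpr17 in 0 of 5, whereas Sox10 and Pdgfra were higher in 2 of 5. At 9000 to 12000 UMIs Sox10 had 6.54 CPM in bulk, 18.1 CPM in localized and 4.65 CPM in control.

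**Figure D3:**
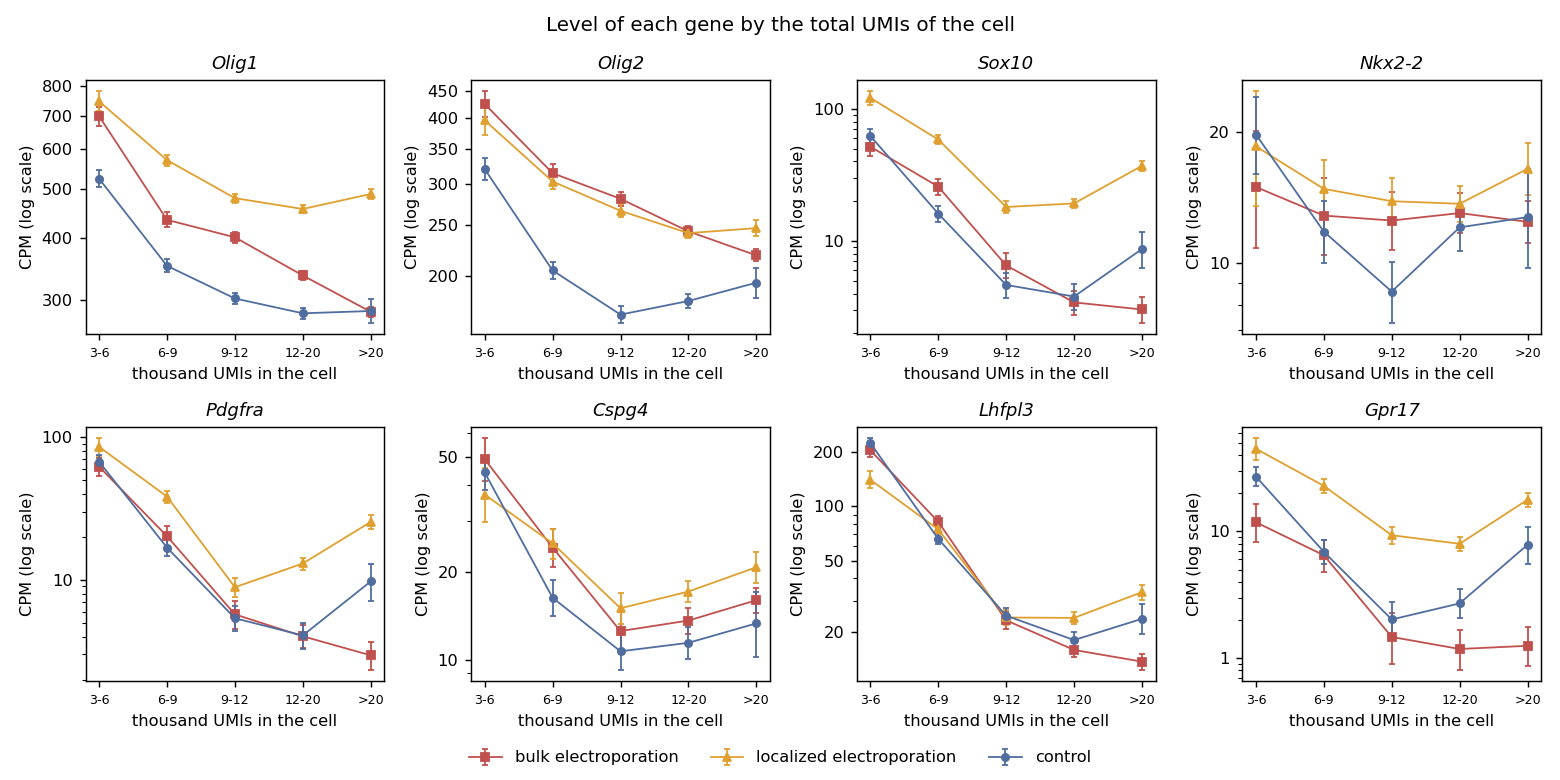
Level (CPM, log scale) of each gene against the total UMIs of the cell (5 ranges) in bulk electroporation, localized electroporation and control, with 95% intervals of counting error. Localized electroporation lies above control for Sox10 and Gpr17 in all 5 ranges, while bulk and control cross for Sox10 and Pdgfra.

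Co-detection along the lineage was read in cells thinned to 3000 UMIs, which left out 0 cells. The co-detection ratio is the number of cells with both genes over the number expected from the 2 shares if they were unrelated. All 28 pairs of members had a ratio above 1 in each library, and 13 pairs in bulk, 14 in localized and 12 in control reached 2. The share of all gene pairs above 1, or of at least 2, in each library was not computed. Sox10 and Gpr17 had the highest ratio, 14.1 in bulk (21 cells with both, 1.49 expected), 7.59 in localized (117 cells, 15.4 expected) and 11.3 in control (52 cells, 4.61 expected). Sox10 and Pdgfra came next in each library, with 6.91 in bulk, 6.44 in localized and 6.41 in control. The median ratio over the 28 pairs was 1.51 in bulk, 1.80 in localized and 1.79 in control, and another seed of the thinning gave 1.67 in bulk. Pairs with Olig1 or Olig2 stayed between 1.103 and 1.72, and their wide detection leaves a low ceiling for this ratio.

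Such ratios were uncommon among the other genes detected in at least 1% of thinned cells of each library. Those genes were not matched to the members for detection, and widely detected ones have a low ceiling for this ratio. The shares below are therefore not like for like with the members. Gpr17 itself, at 0.976% of thinned cells in bulk, lay under that limit. Of 9817 genes, a geometric mean ratio of at least 2 over the 3 libraries was reached with Sox10 by 3.44%, with Nkx2-2 by 0.458%, with Pdgfra by 2.96%, with Cspg4 by 0.784%, with Lhfpl3 by 2.1% and with Gpr17 by 4.54%. Of the 7 other members, 5 reached it with Sox10, 3 with Nkx2-2, 5 with Pdgfra, 4 with Cspg4, 4 with Lhfpl3 and 5 with Gpr17. Nkx2-2 reached it with the fewest, and its ratios to Cspg4 were 1.42 in bulk, 1.37 in localized and 1.29 in control.

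**Figure D4:**
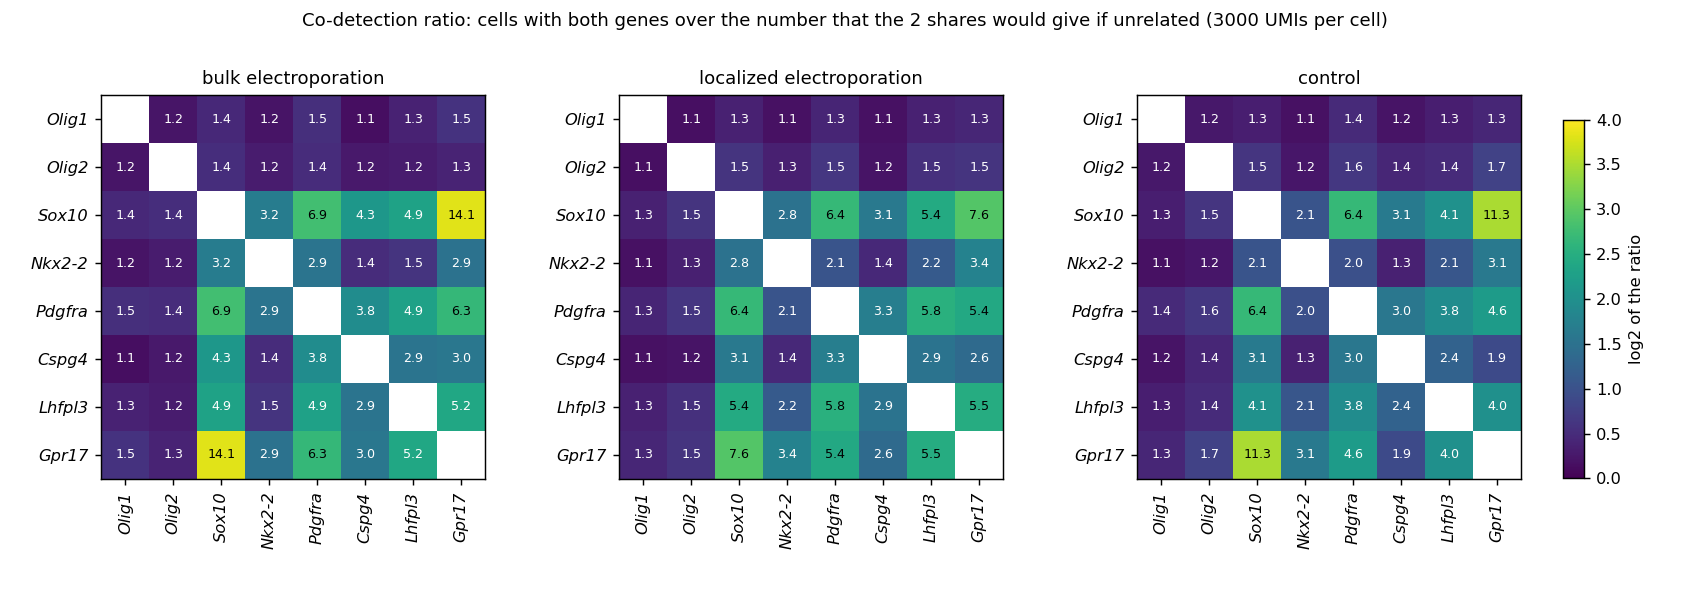
Co-detection ratio of each pair of genes in bulk electroporation, localized electroporation and control at 3000 UMIs per cell. Each square prints the ratio and its color gives the log2 of it. All values exceed 1, and Sox10 with Gpr17 is highest with 14.1 in bulk, 7.59 in localized and 11.3 in control. The share of all gene pairs above 1 was not computed.

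Within cluster 4 the ratios lay closer to 1. The median was 1.13 over 26 pairs in bulk, 1.11 over 28 in localized and 1.15 over 28 in control, counting pairs with at least 5 cells expected. Sox10 and Gpr17 still had 1.67 in localized (91 cells with both, 54.4 expected) and 2.68 in control (38 cells, 14.2 expected). In bulk this pair had fewer than 5 cells expected and was left out. The highest pair in bulk was Sox10 and Nkx2-2 with 2.58 (15 cells, 5.80 expected), beside 1.34 in localized and 1.07 in control. Sox10 and Pdgfra had 1.49 in bulk, 1.43 in localized and 1.83 in control within that cluster.

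By number of members detected, a thinned cell most often held 1. None of the 8 was found in 22.2% of bulk, 18.6% of localized and 27.3% of control cells. At least 4 were found in 3.83% of bulk (3.34 to 4.37), 7.21% of localized (6.58 to 7.88) and 4.38% of control cells (3.88 to 4.93), and the localized interval lay above the other 2. Among cells of at least 6000 UMIs, the shares were 2.09% in bulk, 5.50% in localized and 1.71% in control. All 8 were found in 0 thinned cells of each library, and without thinning in 4 bulk, 45 localized and 5 control cells. Of cells with exactly 4 members, 68.9% in bulk, 75.5% in localized and 75.0% in control were in cluster 4.

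Olig1 or Olig2 without any of the other 6 members was the most frequent state. It held 57.9% of bulk, 60.1% of localized and 49.8% of control cells, and Olig1 or Olig2 together with at least 1 of the others held 16.8%, 19.2% and 18.3% in that order. The others without Olig1 and Olig2 held 3.16% in bulk, 2.05% in localized and 4.58% in control. At this depth a gene of low level is missed in many cells, so these states are states of detection.

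Pdgfra and Gpr17, which stand for successive stages, were found together in 11 bulk, 63 localized and 25 control cells. Gpr17 without Pdgfra was found in 43 bulk, 148 localized and 94 control cells, and Pdgfra without Gpr17 in 167, 288 and 253. The states differed in genes that were not members. Bcas1, a gene of newly forming oligodendrocytes, was found in 20.9% of bulk (10.0 to 36.0), 39.9% of localized (31.9 to 48.2) and 39.4% of control (29.4 to 49.98) cells with Gpr17 alone. In cells with Pdgfra alone it was found in 8.98% of bulk (5.11 to 14.4), 18.1% of localized (13.8 to 23.0) and 7.91% of control (4.90 to 11.9). Bcas1 was therefore more frequent on the Gpr17 side in each library, with intervals that overlapped in bulk. Mki67, a marker of dividing cells, was found in 25.6% of bulk, 10.1% of localized and 14.9% of control cells with Gpr17 alone, and in 25.7%, 21.2% and 32.0% of those with Pdgfra alone. It was the less frequent on the Gpr17 side in localized and control, with intervals that did not overlap, and at nearly the same share in bulk. Sox10 accompanied Gpr17 alone in 39.5% of bulk, 53.4% of localized and 40.4% of control cells, and Pdgfra alone in 18.0%, 44.1% and 21.7%.

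**Figure D5:**
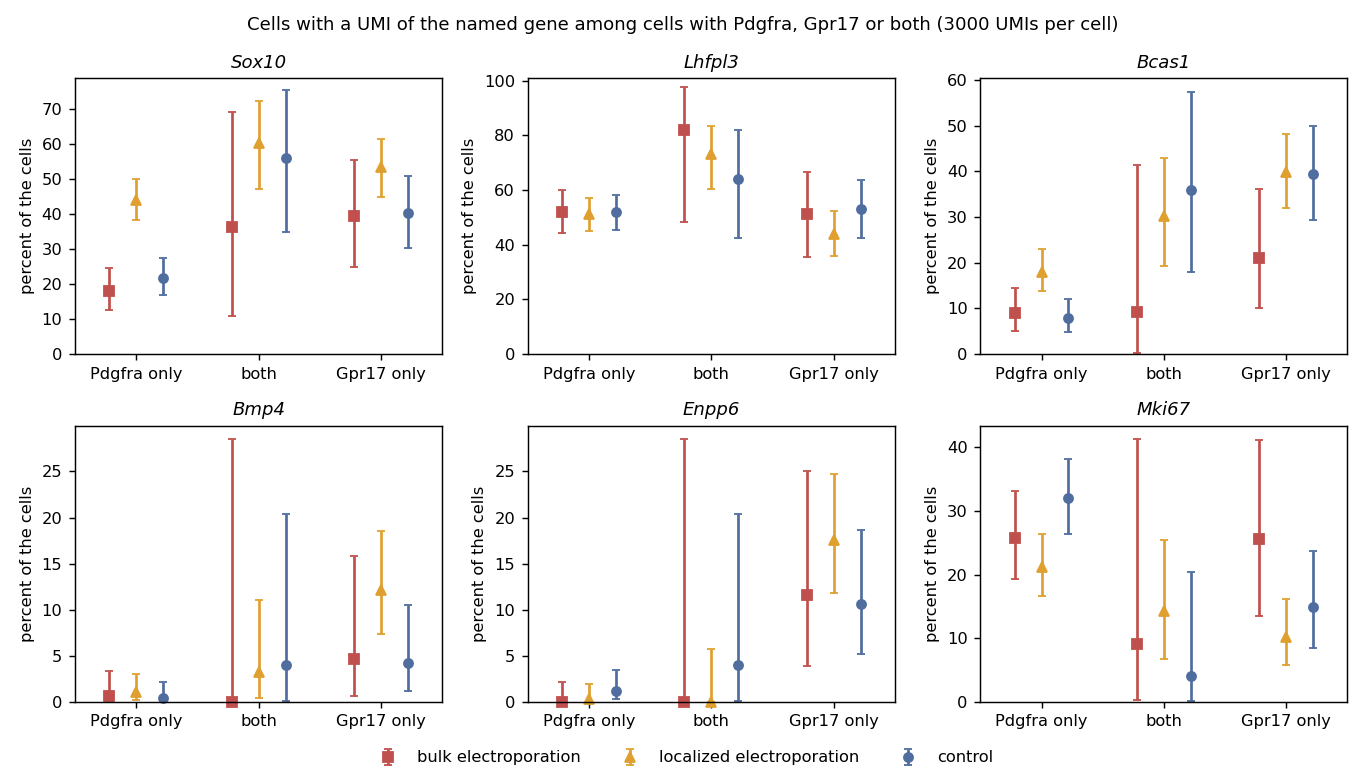
Percent of cells with at least 1 UMI of the named gene among cells with Pdgfra but not Gpr17, with both, and with Gpr17 but not Pdgfra, at 3000 UMIs per cell, in bulk electroporation, localized electroporation and control. Bars are 95% Clopper-Pearson intervals. Bcas1 and Enpp6 are more frequent with Gpr17 alone than with Pdgfra alone, and Lhfpl3 lies between 43.9% and 53.2% in both states of each library.

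Pericyte and fibroblast markers were looked for because Pdgfra and Cspg4 are also read in those cells. Pdgfrb and Rgs5 were found in 0 and Col1a1 in 1 control cell with Pdgfra alone. Microglia markers summed to 0.194 CPM in bulk, 0.171 CPM in localized and 0.130 CPM in control, endothelial markers to 3.08, 3.79 and 2.70 CPM, and erythroid markers to 0.0258, 0.0263 and 0.0324 CPM. Of 9 mural and fibroblast markers 1 averaged at least 5 CPM, the actin gene Acta2, with 307 CPM in bulk, 114 CPM in localized and 249 CPM in control, and Dcn and Abcc9 were each at 0 UMIs in 2 libraries.

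The genes whose level across cells was most like that of each member were sought among 11719 genes, by the mean of Pearson's r in the 3 libraries over the same cells. These values are descriptions over cells that share a library and differ in depth. Olig1 and Olig2 were nearest to each other (mean r 0.447), and Ppp1r14b came next for both (0.377 and 0.310). Tnr, an extracellular matrix protein of precursors, was nearest to Sox10 (0.478) and to Gpr17 (0.457), and Lhfpl3 and Gpr17 were the second and the third for Sox10. The cell adhesion gene Cntn1 was nearest to Lhfpl3 (0.563), and Lhfpl3 was nearest to Pdgfra (0.445) and to Cspg4 (0.240). Bcas1 stood second for Gpr17 (0.441). Nkx2-2 had no close partner, its highest being Bcas1 (0.170), which is weak in counts as sparse as these.

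Other genes of the lineage were read from lists. Of 19 precursor markers, 14 averaged at least 5 CPM. In bulk over control 0 were at least 2-fold apart and 2 had a ratio above 1, with a median log2 ratio of -0.43, and in localized over control 1, Scrg1, was at least 2-fold higher, with a median of 0.12. Tnr had 6.52 CPM in bulk, 16.8 CPM in localized and 11.7 CPM in control. Of 24 markers of differentiating oligodendrocytes, 11 averaged at least 5 CPM, with medians of -0.02 in bulk and 0.62 in localized over control. In localized electroporation 10 of those 11 lay above control, where the median log2 ratio of all genes was 0.12. Bcas1, at least 2-fold higher there, had 8.70 CPM in bulk, 30.5 CPM in localized and 12.9 CPM in control. In bulk over control 1, the small GTPase gene Rras2, was at least 2-fold higher.

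Of 33 further lineage transcription factors, 23 averaged at least 5 CPM, with medians of 0.06 in bulk and 0.14 in localized over control. Id2 and Hes5, which hold back differentiation, were at least 2-fold lower in bulk: Id2 had 56.7 CPM in bulk, 189 CPM in localized and 179 CPM in control, and Hes5 had 30.4, 197 and 90.9 CPM. Id4 and Hes5 were at least 2-fold higher in localized than in control, and Id4 had 8.80 CPM in bulk, 19.7 CPM in localized and 4.50 CPM in control. Of 31 ligands and receptors, 19 averaged at least 5 CPM, with medians of 0.08 and 0.13. The cannabinoid receptor Cnr1 was at least 2-fold higher in bulk than in control (9.74 CPM against 4.14 CPM), and the Notch ligand Dll3 in localized (25.4 CPM against 11.9 CPM). Pdgfa, the ligand of Pdgfra, had 57.3 CPM in bulk, 40.3 CPM in localized and 30.6 CPM in control.

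Lists of other cell types also differed between libraries. Of 17 astrocyte markers, 15 averaged at least 5 CPM, and 5 of them, among them Gfap, Ndrg2, Apoe and Sparcl1, were at least 2-fold higher in localized than in control. The median log2 ratio of the 15 in that comparison was 0.61. In bulk over control 1 of the 15 was at least 2-fold higher, with a median of 0.12. Apoe had 170 CPM in bulk, 497 CPM in localized and 131 CPM in control. Of 9 dividing-cell markers, all of at least 5 CPM, the median log2 ratio was 0.20 in bulk and -0.20 in localized over control. Median ratios of 9 neural stem, 4 transit-amplifying and 4 neuron markers of at least 5 CPM were 0.11, 0.23 and 0.12 in bulk and 0.26, 0.69 and -0.32 in localized over control. Of 5 ependymal markers 1, Foxj1, averaged at least 5 CPM, with 9.85 CPM in bulk, 3.99 CPM in localized and 4.50 CPM in control. The part of these cells in the members' ratios was not tested.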

How the data were processed

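The authors deposited 3 matrices of whole-number counts of UMIs per gene and barcode, with all barcodes kept. GRCm38 (mm10) is the build in the submitters' processing notes, which also list Seurat 4.0.4 and Cell Ranger 6, whereas per the file headers Cell Ranger 4 wrote the matrices. Which annotation release was used, and how the authors filtered cells, is not given in the sources used here. Summed over all barcodes there were 85743257 UMIs in bulk electroporation, 83803032 in localized electroporation and 74429007 in control, of which 77491732, 76177026 and 61775756 lay in cells.

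The members and gene lists were chosen with earlier results of these data known. UMIs were summed over cells and scaled to CPM, and 1 CPM was added to both levels before each log2 ratio, which pulls the ratios of low genes toward 0. Sums have exact Poisson intervals, ratios of 2 sums and shares exact Clopper-Pearson intervals, at 95%, for counting error only. Background genes averaged at least 5 CPM over the 3 libraries. For shares each cell was thinned to 3000 UMIs without replacement. No doublet caller was run, so doublets remain, and an alternative left out the 5% of cells with most UMIs. Clusters used 2000 variable genes without the 8 members, 30 principal components, 15 neighbours and a Leiden resolution of 0.5 (leidenalg 0.10.2, igraph 0.11.9, scikit-learn 1.9.0, Python 3.11.15). The need for 3 markers among 10 leading genes was set after a first naming was seen. Named genes were the 8 members, up to 4 genes per list of at least 5 CPM with the largest log2 ratios to control in either direction, and from the 5 genes most like each member over cells, among genes detected in at least 1% of cells of each library. Genes whose values are given among cells with Pdgfra or Gpr17 (Bcas1, Bmp4, Enpp6, Mki67, Col1a1, Rgs5, Pdgfrb) were picked for their known roles. Summing, ratios and co-detection were tested on simulated data. Values of 1 gene of the lists are not reported here.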

Additional observations from a re-analysis of the deposited data

Results flagged for a closer look

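For 3 members the bulk and localized libraries lay on opposite sides of control, with both ratio intervals clear of 1. The share of all genes that do so was not computed, so this count is not read as particular to the members. This is a difference between 2 treatments against the same control library, and it was not tested, since each group had 1 library. Sox10 had a log2 ratio of bulk over localized electroporation of -1.86, Pdgfra of -1.28 and Gpr17 of -2.17. Among cells of 6000 to 20000 UMIs the same ratios were -1.62, -1.11 and -1.97, and within cluster 4 they were -1.50, -0.93 and -2.34. The side of bulk relative to control is less firm than these values: among cells of 6000 to 20000 UMIs the log2 ratio of bulk over control was 0.13 for Sox10, -0.09 for Pdgfra and -0.53 for Gpr17.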

How the results depend on the processing

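Cell filters, scaling, the treatment of free RNA, depth and the seed of the thinning were varied one at a time. Sox10 and Gpr17 stayed at least 2-fold lower in bulk than in localized electroporation in all 12 alternatives and Pdgfra in 10 of 12. The alternatives that used cluster 4 only, weighted the clusters as in control, or kept cells of 6000 to 20000 UMIs were chosen after seeing the data. The cause of the shifts below was not tested.

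Single ratios took the other sign in a few cases. Lhfpl3 in localized over control was 0.093 with a minimum of 6000 UMIs and 0.063 with 6000 to 20000 UMIs. Olig2 in bulk over localized was 0.032 as a mean over cells and 0.027 with 6000 to 20000 UMIs, and Lhfpl3 there was 0.14 as a mean over cells. In bulk over control Nkx2-2 was -0.24 in cluster 4 and Sox10 was 0.13 with 6000 to 20000 UMIs.

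The count of members at least 2-fold lower in bulk than in control was 0 with a minimum of 6000 UMIs, with 10% of UMIs taken away as free RNA, with clusters weighted as in control and with 6000 to 20000 UMIs. The count of members at least 2-fold higher in localized than in control was 1 with median-of-ratios scaling, 1 as a mean over cells, and 3, with Pdgfra, with a minimum of 6000 UMIs and with 6000 to 20000 UMIs.

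The members' median log2 ratio in bulk over control was -0.020 with a minimum of 6000 UMIs, -0.39 with a minimum set per library and 0.18, the other sign, with 6000 to 20000 UMIs. In localized over control it was 0.60 with a minimum of 6000 UMIs, 0.48 without the 5% of cells with most UMIs, 0.40 with median-of-ratios scaling, 0.35 as a mean over cells, 0.62 with free RNA taken away, 0.66 in cluster 4, 0.56 with clusters weighted as in control and 0.59 with 6000 to 20000 UMIs. In bulk over localized it was -0.51 with a minimum of 6000 UMIs, -0.57 with a minimum per library, -0.30 without the top cells, -0.26 as a mean over cells, -0.60 in cluster 4 and -0.32 with 6000 to 20000 UMIs.

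The share of cells with at least 4 members, in bulk, localized and control, was 2.09%, 5.50% and 1.71% with a minimum of 6000 UMIs, 2.19%, 5.32% and 1.71% with 6000 to 20000 UMIs, 15.6%, 16.9% and 12.1% without thinning, 5.30%, 10.2% and 4.94% thinned to 6000 UMIs (which left out 608, 493 and 1053 cells), 0.289%, 0.921% and 0.312% with at least 2 UMIs per gene, and 11.7%, 14.1% and 11.9% for at least 3 members. With a minimum per library it was 2.20% in bulk and 6.23% in localized. Localized electroporation was highest in each of these.

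The median co-detection ratio was 1.28 in bulk, 1.57 in localized and 1.27 in control without thinning, and 2.25, 2.31 and 2.32 with at least 2 UMIs per gene. In bulk it was 1.68 with a minimum of 6000 UMIs, 1.73 without shared barcodes, 1.67 with another seed and 1.86 with 6000 to 20000 UMIs. In localized it was 1.52 with a minimum of 6000 UMIs and 1.63 thinned to 6000. In control it was 1.59 with at most 10% mitochondrial UMIs, 1.55 thinned to 6000 and 1.61 with 6000 to 20000 UMIs. No order of the libraries is drawn from it.

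No paired analysis was possible because each group has 1 library.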
